A study of Oncorhynchus mykiss with 24 samples.

Results

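Tubulins were represented on the salmonid cDNA array by 55 expressed sequence tags (ESTs, cloned cDNA fragments spotted on the slide) whose description begins with that word, of 16028 ESTs in all. The descriptions named an alpha chain for 25 of them, a beta chain for 16, a delta chain for 1 and an epsilon chain for 1, and the remaining 12 named proteins that fold, modify or bind tubulin. After removal of dim spots, 47 ESTs were tested: 22 alpha chains, 16 beta chains, the epsilon chain and 8 of the other proteins. RNA of 48 single whole rainbow trout embryos was hybridized to 24 arrays, each of which compared 1 pair of embryos labelled with Cy3 and Cy5. The embryos were at 15, 19 or 28 days post fertilization (dpf), which correspond to the eyed stage, the caudal flexing stage and the beginning of hatch, and were female or male by a Y chromosome marker. At a major quantitative trait locus (QTL) for development rate they were OSU/CW, with 1 allele of the fast developing Clearwater clonal line, or OSU/OSU, homozygous for the allele of the slow developing Oregon State University line. All came from the fourth generation of a backcross into the OSU line, so that every embryo carried a mostly OSU background. Each combination of sex, genotype and stage had 4 embryos, and both embryos of an array shared sex and age and differed in genotype.

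Microtubules are hollow polymers of a dimer that holds 1 alpha and 1 beta tubulin chain. They form the mitotic spindle of dividing cells, the core of neuronal axons and the axoneme of cilia. Vertebrates carry several genes for each kind of chain, and in mammals some of these are used mainly by neurons, as beta-3 is, while others are used by most cells. New chains are folded by the T-complex protein 1 ring with the help of prefoldin and are then passed through the tubulin-specific chaperones A to E, which join alpha to beta. Epsilon and delta tubulin are rarer relatives that act at centrioles and basal bodies.

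Values are normalized log2 intensities, which compare a spot between embryos and not between spots. Spots of close relatives can bind each other's transcripts, and the descriptions, which rest on protein matches, give 17 of the 25 alpha chain ESTs no isotype. Single ESTs are therefore named by their identifier and were not assigned to a gene of the trout genome. In whole embryos, fewer cells of a type and less RNA per cell cannot be told apart. The 8 ESTs that were not tested included an alpha-4A chain, above the limit of the negative controls in 13 of 48 channels, an alpha-1C chain in 1, the delta chain in 5 and 1 bright alpha chain (CK990304) that had values on 12 arrays after removal of poor spots. The other 4 were a chaperone A, a chaperone C, a folding cofactor B and subunit 2 of the tubulin polyglutamylase complex, above the limit in 6 to 13 channels. Of the tested ESTs, 8 had values on all 24 arrays and the least complete had 16. The median signal over local background per channel was 1.19 to 1.82 at 15 dpf, 1.29 to 3.11 at 19 dpf and 1.78 to 4.80 at 28 dpf, so it moved with stage, and its part in the stage differences was not tested.

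The stage comparison asked how the tubulin transcripts changed while embryos passed from the eyed stage to hatch. Alpha chain ESTs were lower at 28 dpf than at 15 dpf in 10 of 22 cases at an adjusted p under 0.05 and higher in 0, while 1 of 16 beta chain ESTs was lower and 0 were higher. Over all 11653 features tested, 19.3% were called lower and 18.6% higher in this comparison. The fitted difference was below 0 in 19 of the 22 alpha chain ESTs, with a median of -0.35 on the log2 scale (range -1.42 to 0.14), and in 10 of the 16 beta chain ESTs, with a median of -0.06 (range -0.58 to 0.54), beside a median of 0.00 over all features. The counts also rest on precision: an alpha chain EST at -0.36 was called and a beta chain EST at -0.58 was not. Above the limit of the negative controls in all 48 channels, 9 of 17 alpha chain and 1 of 9 beta chain ESTs were called lower. The medians there were -0.36 in alpha chains, -0.10 in beta chains and -0.11 over all features. Of these 1873 features, 169 were called higher and 356 lower. With each channel only centred on its median, the alpha chain median was 0.13 and the beta chain median 0.26, beside 0.26 over all features, so the sign of both medians turned on that scale, while the alpha chain median stayed below that of all features. On that scale 1 alpha chain EST was called lower and 1 higher, and 0 beta chain ESTs were called lower and 1 higher. Over all 11635 features tested on that scale, 1555 were called lower and 2739 higher. The beta chain median was also above 0 without background subtraction (0.03), with quantile normalization (0.02) and without array 13 (0.03) or array 18 (0.02).

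**Figure D1:**
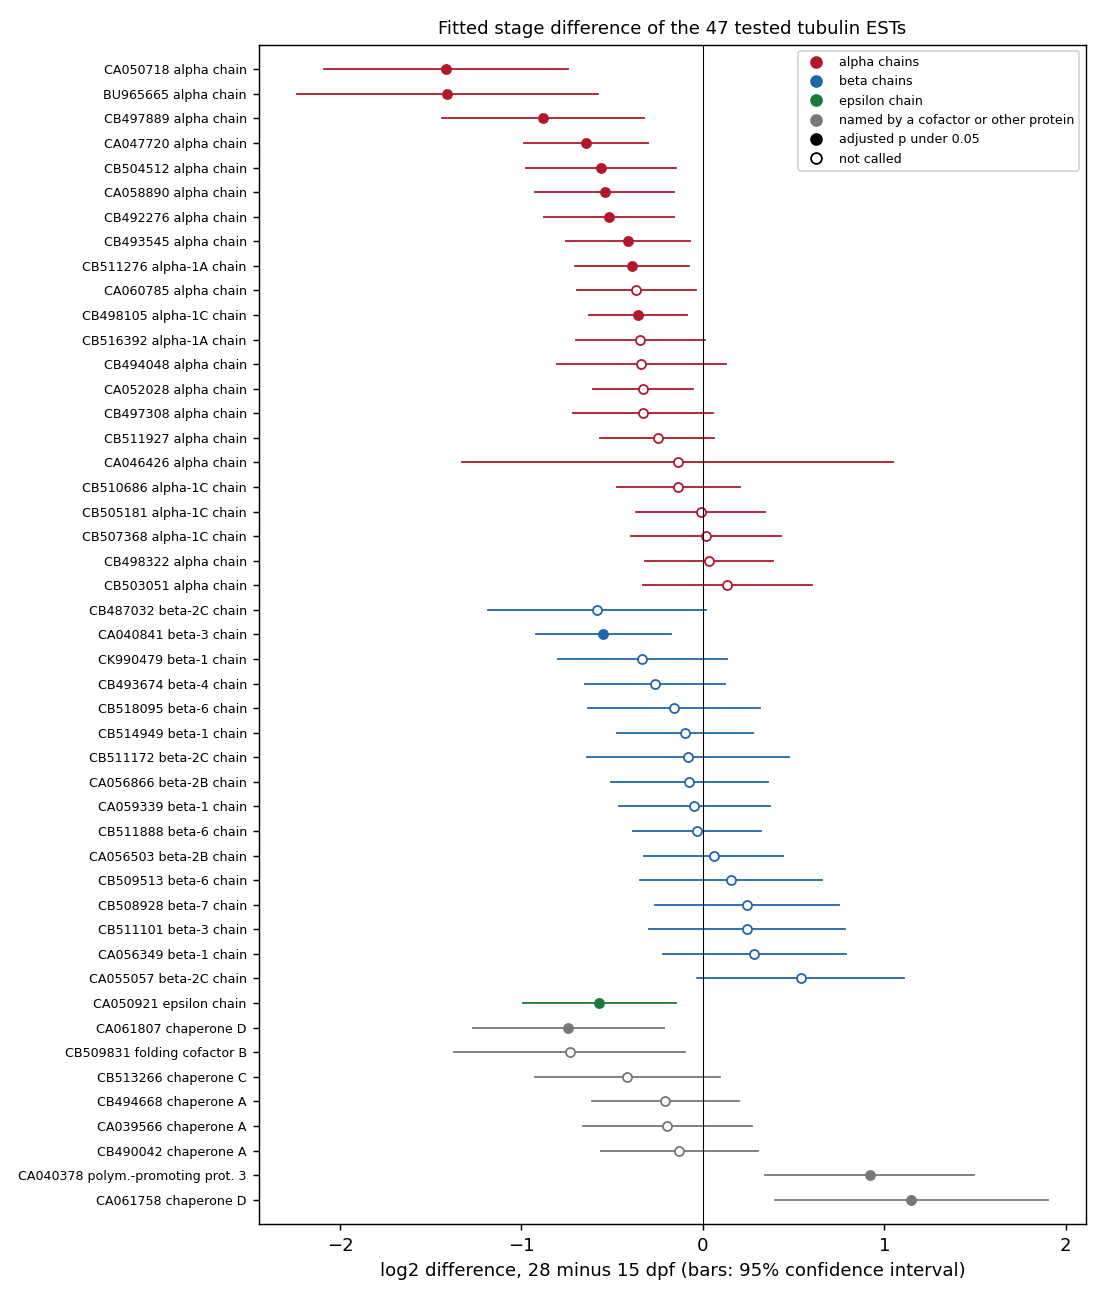
Fitted log2 difference between 28 and 15 dpf (horizontal axis) for each of the 47 tested ESTs (rows), grouped by the chain or protein named and ordered by size; points are estimates, bars are 95% confidence intervals and filled points have an adjusted p under 0.05. The 10 called alpha chain ESTs lie at -1.42 to -0.36, and most beta chain intervals cross 0. With each channel only centred on its median the alpha chain median was 0.13.

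Among the alpha chain ESTs, those with no isotype in their description were called in 8 of 16 cases and had a median difference of -0.39. The alpha-1A ESTs were called in 1 of 2 cases (median -0.37) and the alpha-1C ESTs in 1 of 4 (median -0.07). The 12 alpha chain ESTs that were not called had differences of -0.37 to 0.14, of which 9 were below 0. By beta isotype the median difference was -0.07 in 4 beta-1 ESTs, -0.01 in 2 beta-2B, -0.08 in 3 beta-2C, -0.03 in 3 beta-6, -0.15 in 2 beta-3, -0.26 in the beta-4 and 0.24 in the beta-7 EST. The alpha chain ESTs thus reached further below 0 than above it, and the beta chain ESTs lay on both sides.

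The alpha chain EST CA047720 had a narrow spread within each stage. Its values (lowest, median and highest embryo) were 13.7, 14.2 and 14.6 at 15 dpf (n = 16), 13.5, 14.2 and 14.6 at 19 dpf (n = 16) and 13.1, 13.6 and 13.9 at 28 dpf (n = 12). The first 2 stages covered the same range, and 10 of the 12 embryos at 28 dpf lay below the lowest embryo at 15 dpf. It fell by 0.64 ± 0.17 (SE) against 15 dpf, a 1.56-fold lower level (adjusted p = 0.00274), and by 0.60 ± 0.17 against 19 dpf (adjusted p = 0.0129). With channels only centred neither call held, at -0.15 against 15 dpf (adjusted p = 0.652) and -0.21 against 19 dpf (adjusted p = 0.587), and without background subtraction the difference from 19 dpf was -0.44 (adjusted p = 0.0741).

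The largest fitted decreases were less even. The alpha chain EST CA050718 had values of 12.3, 14.2 and 15.4 at 15 dpf (n = 14), 12.4, 13.5 and 15.3 at 19 dpf (n = 14) and 11.0, 13.3 and 14.0 at 28 dpf (n = 12). The stages overlapped, and 4 of the 12 embryos at 28 dpf were below the lowest at 15 dpf. It was 2.67-fold lower at 28 dpf than at 15 dpf (log2 difference -1.42 ± 0.33, adjusted p = 0.00109). Those 4 embryos were all males, on arrays 23 and 33, and the sexes of this EST are given with the sex comparison. The call held under each alternative tried, and its adjusted p was at most 0.00787 when single arrays were left out.

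For 2 further alpha chain ESTs the size of the difference came from few arrays. BU965665 had values of 14.0, 14.4 and 14.6 at 15 dpf (n = 16), 12.5, 14.3 and 15.1 at 19 dpf (n = 10) and 9.62, 13.9 and 14.4 at 28 dpf (n = 16). On array 38 both females at 28 dpf were low, at 11.1 (OSU/CW) and 10.4 (OSU/OSU), and on array 23 both males were low, at 10.3 (OSU/CW) and 9.62 (OSU/OSU), and both males on array 28 were at 12.5, while the remaining embryos of that age were at 13.8 or above. The fitted difference against 15 dpf was -1.41 ± 0.41 (adjusted p = 0.00655), and without array 23 it was -0.96 (adjusted p = 0.0251). CB497889 had values of 14.0, 14.2 and 14.6 at 15 dpf (n = 16), 13.5, 14.1 and 14.8 at 19 dpf (n = 16) and 9.74, 13.7 and 14.2 at 28 dpf (n = 16). Both low males shared array 33, with 9.74 (OSU/CW) and 10.6 (OSU/OSU), and 13 of the 16 embryos at 28 dpf were below the lowest at 15 dpf. Its difference was -0.88 ± 0.28 (adjusted p = 0.0103) over all arrays and -0.44 (adjusted p = 0.0161) without array 33. With each feature's own mixed model neither EST was called, at an adjusted p of 0.0832 for BU965665 and 0.0784 for CB497889, and neither was called with channels only centred, at -1.03 for BU965665 (adjusted p = 0.0957) and -0.47 for CB497889 (adjusted p = 0.277).

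**Figure D2:**
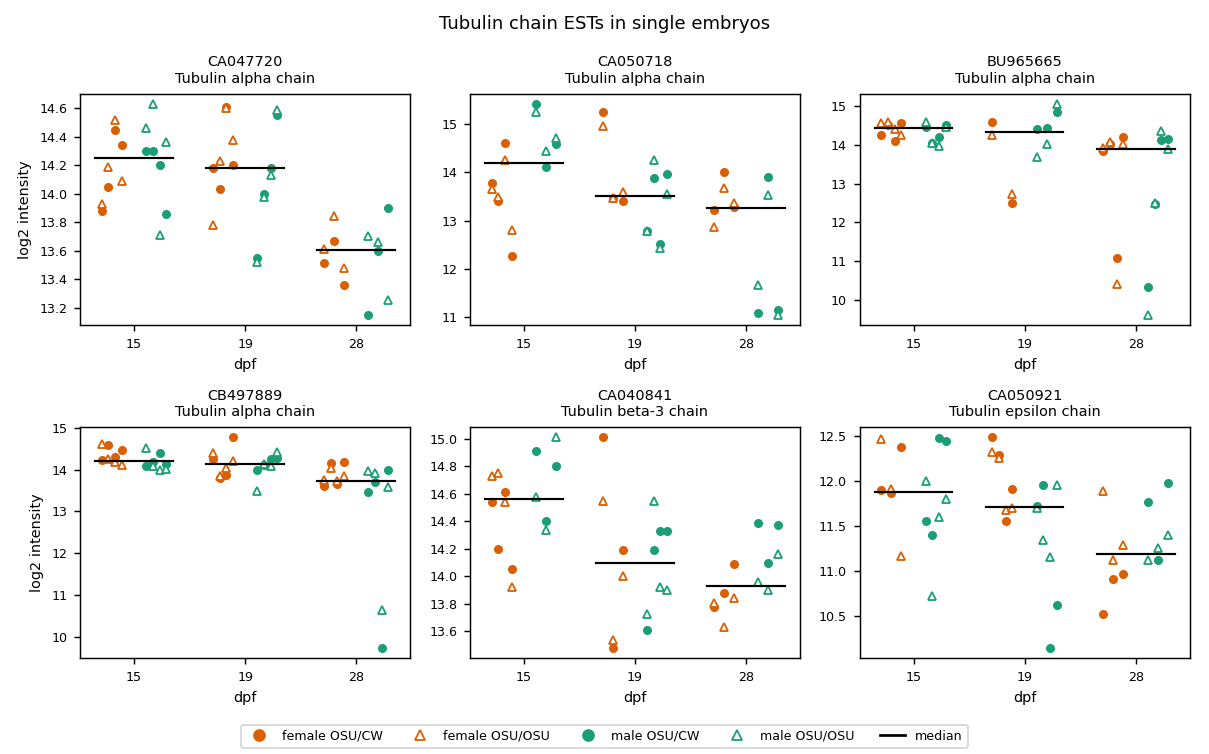
Normalized log2 intensity (vertical axis) of 4 alpha chain ESTs, a beta-3 chain EST and the epsilon chain EST in single embryos at 15, 19 and 28 dpf (horizontal axis), with females left of males, filled circles for OSU/CW, open triangles for OSU/OSU and a line at the median of each stage. CA047720 is lower as a group at 28 dpf, whereas the low values of BU965665 and CB497889 come in pairs of embryos from the same array.

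With the normalization as reported, the larger median difference of the alpha chain ESTs lay between 19 and 28 dpf. Single ESTs departed from this, as CA050718 did in males (given with the rule of the study's methods). Averaged over sexes and genotypes, 0 of the 47 ESTs were called in either direction between 19 and 15 dpf by the fitted stage contrast. Over all features, 2.36% were called higher and 0.318% lower. An unadjusted p under 0.05 was found for 2 ESTs, against 15.7% of all features. Between 28 and 19 dpf, 4 alpha chain ESTs and 0 beta chain ESTs were lower, and 0 ESTs were higher, where 9.01% of all features were called lower and 7.73% higher. They were CA047720, CA058890, CA060785 and an alpha-1C chain EST (CB498105, -0.44 ± 0.14, adjusted p = 0.0317). The alpha chain median was -0.02 for 19 against 15 dpf and -0.40 for 28 against 19 dpf, and the beta chain medians were -0.02 and -0.14. With each channel only centred on its median the alpha chain median for 28 against 19 dpf was 0.01, beside 0.17 over all features. On that scale 0 tubulins were called lower, beside 650 of 11635 features.

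CA058890 had values of 13.0, 14.6 and 15.0 at 15 dpf (n = 14), 13.8, 14.5 and 14.8 at 19 dpf (n = 16) and 13.1, 14.0 and 14.4 at 28 dpf (n = 16). All embryos at 28 dpf were within the range of 15 dpf, where 1 female (OSU/OSU) was at 13.0 and the next embryo at 13.8. Its difference was -0.53 ± 0.18 against 19 dpf (adjusted p = 0.0371) and -0.54 ± 0.19 against 15 dpf (adjusted p = 0.0215). CA060785 had values of 14.1, 14.6 and 15.0 at 15 dpf (n = 16), 14.0, 14.8 and 15.1 at 19 dpf (n = 14) and 13.2, 14.3 and 14.9 at 28 dpf (n = 14). The ranges overlapped widely, with 5 embryos at 28 dpf below the lowest at 15 dpf. It was called against 19 dpf (-0.48 ± 0.17, adjusted p = 0.0472) and not against 15 dpf (-0.37 ± 0.16, adjusted p = 0.0722). Both calls against 19 dpf were near the threshold: leaving out 1 array ended that of CA058890 in 10 of 24 cases (adjusted p of at most 0.083) and that of CA060785 in 18 of 24 (at most 0.122). The call of CA058890 against 15 dpf ended without array 13, 17 or 18 (adjusted p of at most 0.0844). With channels only centred CA058890 had -0.01 against 15 dpf (adjusted p = 0.978) and -0.13 against 19 dpf (adjusted p = 0.701), and CA060785 had -0.11 against 19 dpf (adjusted p = 0.79).

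Saturated spots lay almost wholly in the younger stages. The scanner marked at least 1 channel as saturated in 6 alpha chain ESTs and in 0 beta chain ESTs. CK990304 was saturated in 3 channels at 15 dpf, 6 at 19 dpf and 1 at 28 dpf, and the alpha-1A EST CB516392 in 3, 3 and 0. CB511927 was saturated in 2 channels and CB498105 and CA052028 in 1 each at 19 dpf, and CB493545 in 1 at 15 dpf. A saturated spot gives only a lower bound on its level.

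Beta-3 tubulin, which marks neurons in mammals, had 2 ESTs on the array, with fitted differences of opposite sign. CA040841 had values of 13.9, 14.6 and 15.0 at 15 dpf (n = 14), 13.5, 14.1 and 15.0 at 19 dpf (n = 14) and 13.6, 13.9 and 14.4 at 28 dpf (n = 12), and 6 of the 12 embryos at 28 dpf were below the lowest at 15 dpf. It was the beta chain EST called lower at 28 dpf than at 15 dpf (-0.55 ± 0.18, 1.47-fold, adjusted p = 0.017), although it was not called with poor spots kept (-0.37, adjusted p = 0.118) or with channels only centred (-0.09, adjusted p = 0.781). Most of its difference lay before 19 dpf, at -0.45 ± 0.18 for 19 against 15 dpf (adjusted p = 0.188) and -0.10 ± 0.18 for 28 against 19 dpf. The other beta-3 EST, CB511101, had a difference of 0.24 ± 0.27 for 28 against 15 dpf (adjusted p = 0.498). CB511101 was dim, above the limit of the negative controls in 23 of 48 channels, and CA040841 was above it in 48. The difference between the ESTs was not tested.

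The largest beta chain differences that were not called belonged to 2 beta-2C ESTs of opposite sign. CB487032 had -0.58 ± 0.30 (adjusted p = 0.118) and CA055057 had 0.54 ± 0.28 (adjusted p = 0.13) for 28 against 15 dpf. At 19 dpf the embryos spread from 9.18 to 11.7 for CB487032 and from 8.95 to 11.5 for CA055057.

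In 0 tubulin ESTs did all embryos at 28 dpf lie below, or all above, those at 15 dpf, where 0.498% and 2.29% of all features did, and the same held against 19 dpf (0.163% and 0.781%).

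Per array, the median over the alpha chain ESTs of the level relative to each EST's own mean was 0.17 ± 0.15 at 15 dpf, 0.17 ± 0.12 at 19 dpf and -0.17 ± 0.12 at 28 dpf (SD, n = 8 arrays each). At 28 dpf the arrays ran from -0.38 to 0.03, which overlapped 15 dpf (-0.07 to 0.36) and did not overlap 19 dpf (0.07 to 0.45). The same median over the beta chain ESTs was 0.04 ± 0.25, 0.07 ± 0.14 and -0.07 ± 0.20 at the 3 stages, with overlapping ranges, and at 28 dpf the 4 arrays with females were at -0.39 to 0.03 and those with males at -0.04 to 0.17. Within arrays, the alpha chain median minus the beta chain median was 0.129 ± 0.175 at 15 dpf, 0.104 ± 0.208 at 19 dpf and -0.097 ± 0.171 at 28 dpf. Its ranges overlapped between all stages (-0.126 to 0.383, -0.132 to 0.434 and -0.296 to 0.261). These medians and differences describe the ESTs of the family and carry no test, since ESTs that can bind each other's transcripts are not replicates.

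**Figure D3:**
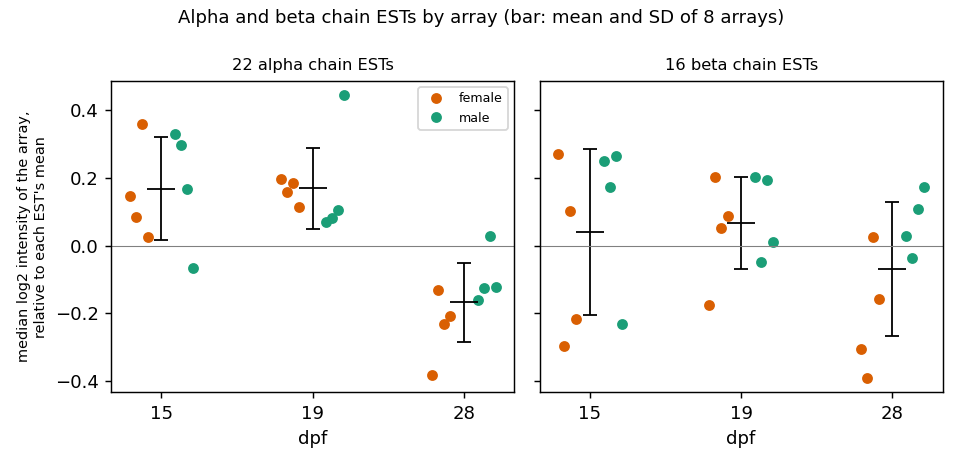
Median over the 22 alpha chain ESTs (left) and the 16 beta chain ESTs (right) of the log2 intensity relative to each EST's mean (vertical axis), by stage (horizontal axis); each point is 1 array, the mean of its 2 embryos, with females left of males, and bars are mean and SD of 8 arrays. Alpha chain medians at 28 dpf lie at or below 0.03, those at 19 dpf at or above 0.07 and those at 15 dpf between -0.07 and 0.36, with the normalization as reported.

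Once stage and sex means were removed, ESTs of the same kind of chain had little in common across arrays. Pearson's r over the arrays had a median of 0.10 over the 231 pairs of alpha chain ESTs (range -0.77 to 0.70), 0.09 over the 120 pairs of beta chain ESTs and 0.03 over the 352 mixed pairs, over at most 24 arrays that also share their hybridization. Deviations between arrays were thus mostly not shared within a kind of chain.

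The epsilon chain EST CA050921 had values of 10.7, 11.9 and 12.5 at 15 dpf (n = 14), 10.1, 11.7 and 12.5 at 19 dpf (n = 16) and 10.5, 11.2 and 11.97 at 28 dpf (n = 12). The ranges overlapped, with 1 embryo at 28 dpf below the lowest at 15 dpf. It was lower at 28 dpf than at 15 dpf (-0.57 ± 0.21, adjusted p = 0.029), and without background subtraction the difference was -0.15 (adjusted p = 0.545). The call also ended without array 13, 34, 41, 28 or 36 (adjusted p of at most 0.0763). It did not hold with channels only centred (-0.56, adjusted p = 0.0546) or with no dye term (adjusted p = 0.0692).

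Of the 8 tested ESTs for proteins that act on tubulin, 2 were higher and 1 was lower at 28 dpf than at 15 dpf, beside 18.6% and 19.3% of all features. Tubulin polymerization-promoting protein family member 3, which binds and bundles microtubules, had values of 10.3, 11.1 and 11.96 at 15 dpf (n = 14), 9.71, 11.96 and 12.8 at 19 dpf (n = 12) and 11.3, 12.02 and 12.7 at 28 dpf (n = 14). Most embryos at 28 dpf, 10 of 14, lay above the highest at 15 dpf. Its EST CA040378 rose by 0.92 ± 0.28, 1.89-fold (adjusted p = 0.0106). Without background subtraction the difference was 0.46 (adjusted p = 0.0424), and with loess alone 0.25 (adjusted p = 0.592).

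The 2 ESTs of chaperone D, which holds the beta chain while the dimer is assembled, moved in opposite directions. CA061807 had values of 10.3, 10.9 and 12.6 at 15 dpf, 9.26, 10.8 and 11.7 at 19 dpf and 9.68, 10.2 and 11.1 at 28 dpf (n = 16 each), and 8 embryos at 28 dpf were below the lowest at 15 dpf. It was lower at 28 dpf than at 15 dpf by a fitted -0.74 ± 0.26 (adjusted p = 0.0217), and the call ended without array 41, 33 or 36 (adjusted p of at most 0.0548) and without background subtraction (-0.34, adjusted p = 0.119). CA061758 had values of 8.30, 9.96 and 12.4 at 15 dpf (n = 14), 9.04, 10.4 and 12.2 at 19 dpf (n = 14) and 9.84, 11.0 and 12.5 at 28 dpf (n = 16), with wide overlap. It was higher at 28 dpf by 1.15 ± 0.37 (adjusted p = 0.0135), and without array 33 by 0.90 (adjusted p = 0.0511). That call also ended without background subtraction (0.47, adjusted p = 0.0626), with loess alone (0.32, adjusted p = 0.567), with poor spots kept (0.75, adjusted p = 0.141) and with its own mixed model (adjusted p = 0.0571). Whether both spots hold the same transcript is not known from the descriptions.

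**Figure D4:**
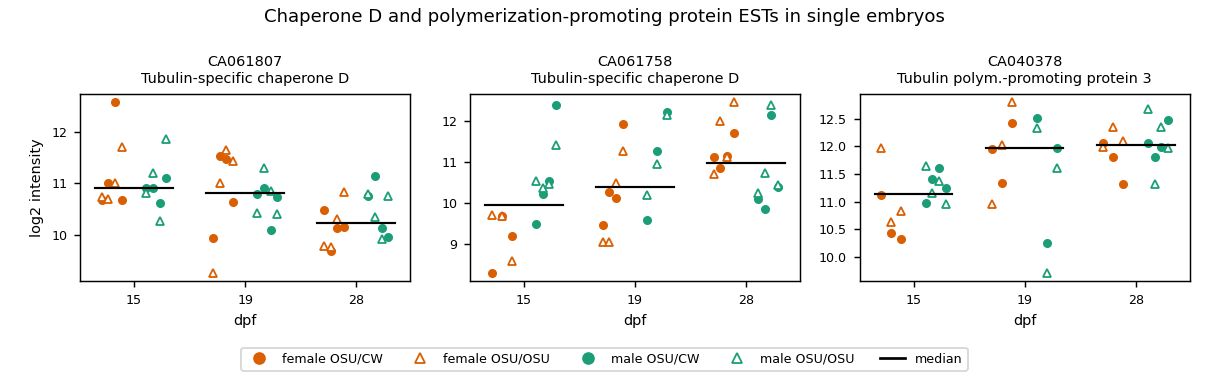
Normalized log2 intensity (vertical axis) of both chaperone D ESTs and of tubulin polymerization-promoting protein family member 3 in single embryos at 15, 19 and 28 dpf (horizontal axis), with females left of males, filled circles for OSU/CW, open triangles for OSU/OSU and a line at the median of each stage. CA061807 has its lowest median at 28 dpf, and CA061758 and CA040378 have their highest there.

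The other 5 were not called between 28 and 15 dpf. Folding cofactor B, which works with the alpha chain, had the largest difference (CB509831, -0.74 ± 0.32, adjusted p = 0.0624), with embryos from 8.5 to 11.1 at 28 dpf and 10.2 to 12.3 at 15 dpf. Chaperone C, which triggers the release of the finished dimer, had -0.42 ± 0.25 (CB513266, adjusted p = 0.196). The 3 ESTs of chaperone A, which holds free beta chains, had differences of -0.21 (CB494668), -0.20 (CA039566) and -0.13 (CB490042) with adjusted p of 0.435, 0.529 and 0.664.

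Other genes of the microtubule system were read from lists of descriptions, and their counts stand beside 18.6% higher and 19.3% lower over all features. Of 45 tested ESTs for T-complex protein 1, prefoldin and folding cofactor B (1 of them also counted above), 4 were higher and 12 lower at 28 dpf than at 15 dpf, with a median of -0.19. The lower calls included several ESTs of subunit epsilon of T-complex protein 1. They were CA063220 (-0.57), CK991027 (-0.59), CK991357 (-0.74), CB492739 (-0.55), CB498771 (-0.81) and CB498357 (-0.82). The epsilon ESTs CA041736 (0.04) and CB514191 (-0.185) were not called. The largest called differences of the list were 1.41 for subunit theta of T-complex protein 1 (CA058618, adjusted p = 0.00114) and -0.96 for prefoldin subunit 5 (CA049938, adjusted p = 0.0354). Other ESTs of subunit theta and prefoldin subunit 5 were not called and differed in sign. They had -0.55, -0.34 and 0.28 for subunit theta and 0.21 and -0.31 for prefoldin subunit 5. Of 25 ESTs for microtubule-associated proteins, 3 were higher and 7 lower (median -0.13). Stathmin, which binds free tubulin dimers, had the largest increase in 1 of its 4 ESTs (CA048011, 1.15, adjusted p = 3.71e-05), while the other 3 were not called (-0.35 to 0.10), and light chain 3A of the microtubule-associated proteins 1A and 1B, an autophagosome protein, the largest decrease (CA047944, -1.24, adjusted p = 0.0415). Of 15 ESTs for motors, 4 were higher and 3 lower (median 0.20), from a dynein light chain (roadblock-type 2, CA036648, 1.31, adjusted p = 0.000933) to the mitotic kinesin KIF20A (CB496757, -1.13, adjusted p = 0.000918). ESTs with these descriptions went both ways: another roadblock-type 2 EST was higher (CB494202, 0.81) and another lower (CB494617, -0.72, adjusted p = 0.00354), and another KIF20A EST was lower (CA052102, -0.89) and another higher (CB491150, 0.68, adjusted p = 0.00757).

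Marker lists of cell types were read in the same way, and their counts stand beside 18.6% higher and 19.3% lower over all features. The levels of every list but skeletal muscle overlapped between 15 and 28 dpf. Of 36 ESTs of dividing cells, such as cyclins and DNA replication factors, 0 were higher and 15 lower at 28 dpf than at 15 dpf, with a median of -0.41. The median level of this list per embryo, relative to each EST's mean, was -0.65 to -0.04 at 28 dpf and -0.17 to 0.29 at 15 dpf. Of 13 ESTs on a list for neurons, which by its wording also took in relatives used by many cells, 4 were higher and 2 lower, and its level was -0.19 to 0.36 at 28 dpf and -0.42 to 0.31 at 15 dpf. Of 65 ESTs of skeletal muscle, 59 were higher and 0 lower, with levels of 1.02 to 1.65 at 28 dpf and -1.32 to -0.71 at 15 dpf. Of 53 hemoglobin ESTs, 5 were higher and 21 lower, with levels of -0.88 to 0.14 at 28 dpf and -0.60 to 0.46 at 15 dpf. Their part in the tubulin differences was not tested.

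The genotype comparison, which asks whether embryos with the fast allele differ in these transcripts, was made within arrays. None of the 47 ESTs was called at 15, 19 or 28 dpf or over all stages, as 0% of all features were in each of the 4 comparisons. At an unadjusted p under 0.05 there were 1 tubulin EST at 15 dpf (5.19% of all features), 3 at 19 dpf (5.7%), 2 at 28 dpf (4.48%) and 0 over all stages (4.64%). At 19 dpf, 38 of the 47 fitted differences were above 0, beside 5694 of 11653 over all features. The median was 0.07 in alpha chains and 0.16 in beta chains, beside -0.01 over all features. This count carries no test, since the ESTs share arrays and can bind each other's transcripts. At 15 dpf the medians were -0.02 in alpha and -0.03 in beta chains, and at 28 dpf 0.03 and 0.07. The smallest p over all stages was that of the beta-6 chain EST CB509513. Its lowest, median and highest values were 10.7, 12.9 and 13.8 in OSU/CW embryos and 11.1, 12.4 and 13.7 in OSU/OSU embryos (n = 23 each), it was higher in the OSU/CW embryo on 11 of 23 arrays, and the difference was 0.22 (95% confidence interval -0.01 to 0.45, adjusted p = 0.998).

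The sex comparison was made between arrays. Likewise 0 tubulin ESTs were called at any stage or over all stages, where 0.00858% of all features (1 feature) were called at 15 dpf, 0% at 19 dpf, 0.00858% at 28 dpf and 0% over all stages. At an unadjusted p under 0.05 there were 5 tubulin ESTs at 15 dpf (6.49% of all features), 5 at 19 dpf (9.17%), 3 at 28 dpf (3.48%) and 3 over all stages (4.39%). The smallest p over all stages was that of the alpha chain EST CB497308, with values of 11.9, 12.7 and 13.7 in females (n = 22) and 12.3, 13.1 and 14.0 in males (n = 20). Females were lower by a fitted -0.38 (95% confidence interval -0.69 to -0.08, adjusted p = 0.997). The sexes overlapped over most of their range.

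CA050718 had the smallest p of the family for a sex difference that varied with stage (unadjusted p = 0.00107, adjusted p = 0.53). Females had values of 12.3 to 14.6 at 15 dpf (n = 8), 13.4 to 15.3 at 19 dpf (n = 6) and 12.9 to 14.0 at 28 dpf (n = 6). Males had values of 14.1 to 15.4 at 15 dpf (n = 6), 12.4 to 14.3 at 19 dpf (n = 8) and 11.0 to 13.9 at 28 dpf (n = 6). Females were thus lower than males at 15 dpf by a fitted -1.22 ± 0.45 (adjusted p = 0.674) and higher at 28 dpf by 1.34 ± 0.49 (adjusted p = 1), with both differences short of the threshold after adjustment. No tubulin EST was called for an interaction of genotype and stage, of sex and stage or of sex and genotype (0%, 0.00858% and 0% of all features). At an unadjusted p under 0.05 there were 4, 5 and 0 ESTs, against 5.29%, 6.97% and 5.88% of all features.

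Under the rule of the study's methods a feature must first differ among the 12 combinations of sex, genotype and stage (false discovery rate of 0.05), after which the 66 pairs of combinations are read at a rate of 0.2. Of the 47 tubulin ESTs, CA050718 alone passed the first step, as did 1600 of all 11653 features. CA050718 was called in at least 1 of 6 sex contrasts (9.73% of all features) and at least 1 of 12 stage contrasts (13.7%), and in 0 of 6 genotype contrasts (9.44%). The sex contrasts were those at 15 and 28 dpf in both genotypes, and the stage contrasts were all among males. Without array 13, 14, 18, 34, 23, 26, 33, 38 or 39 the rule called 0 tubulin ESTs.

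**Figure D5:**
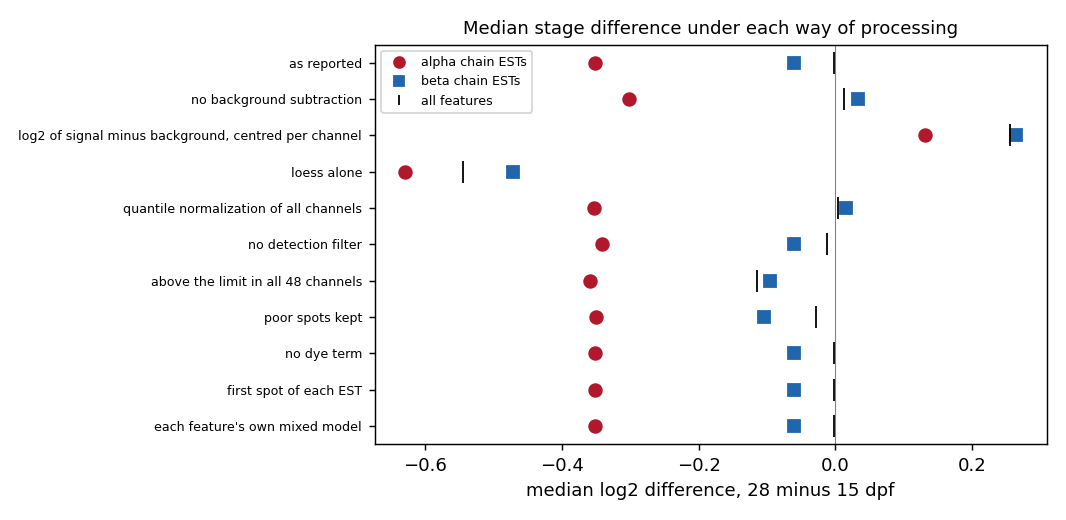
Median log2 difference between 28 and 15 dpf (horizontal axis) of the alpha chain ESTs (circles), the beta chain ESTs (squares) and all features (ticks) under each way of processing (rows). The alpha chain median lies below that of all features in every row, by 0.35 as reported and by 0.09 with loess alone, and it is above 0 only where each channel was centred on its median.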

How the data were processed

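RNA of 48 embryos was measured on 24 arrays with 2 channels. The authors deposited, per channel, the scanner's mean spot intensity with the mean local background, on a linear scale and not normalized, and a table with 1 score per spot for 10153 spots (column medians -1.10 to 1.07). Each score was rebuilt within 0.0001 for at least 99.7% of the values of a column as a quotient of centred log intensities. The quotient was Cy3 over Cy5, with its sign turned on arrays whose Cy5 embryo was OSU/CW. It is not a log ratio, its log base stays unknown, and it was not used for tests.

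Intensities were corrected with normexp (offset 50), loess and Aquantile in limma 3.58.1 (R 4.3.3). Spots with a scanner flag that was read as marking poor spots were set to missing, 189 to 1446 per array. The meaning of the flag codes was not given. The median number per array was 698 at 15 dpf and 978.5 at 28 dpf. A feature needed a signal above the 90th percentile of 1003 negative controls in at least 16 of 48 channels and values on at least 2 arrays per sex and stage. Each feature was fitted by generalized least squares with the 12 treatments and the dye of the study's model. The study's random array effect, fitted there feature by feature, was replaced by 1 within-array correlation of 0.52 for all features. Variances were moderated in limma (7.14 prior degrees of freedom), with Benjamini-Hochberg adjustment over 11653 features. The number of arrays limits the precision.

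The members and lists were chosen with earlier results of these data known. Named were, per stage comparison, up to 3 called alpha and beta chain ESTs with the largest difference in each direction, all tested ESTs of other chains or naming no chain, and the smallest p for genotype and sex; other ESTs were chosen after their values were seen. On simulated data for 28 against 15 dpf with 11653 features, 8.96% of 67 changes of 0.5 (log2), 70.1% of 67 changes of 1 and 100% of 66 changes of 2 were recovered. Of the unchanged features 12 were called. No other features were changed there, whereas 2170 were called higher and 2250 lower in the data. The adjustment was therefore stricter in the simulation, and its shares do not give the power of the real comparison. No genome or EST sequence was used, and 0 members matched the RefSeq gene table.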

Additional observations from a re-analysis of the deposited data

Results flagged for a closer look

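In groups of 4 arrays of the same sex and stage, 5 of 72 groups over the 18 named ESTs held 1 array that stood apart from the other 3 by more than Dixon's 95% limit for the gap as a share of the group's range, where chance gives about 1 group in 20. All values are means of the 2 embryos of an array. The alpha chain EST BU965665 was at 10.8 on array 38 of the females at 28 dpf, against 13.9 to 14.1 on the other 3 (gap of 0.932 of the range). The alpha chain EST CB497889 was at 10.2 on array 33 of the males at 28 dpf, against 13.7 to 13.8 (0.975). On that array the chaperone D EST CA061758 was high, at 12.3 against 10.2 to 10.4 (0.884). The beta-6 EST CB509513 was at 12.2 on array 40 of the females at 19 dpf, against 13.0 to 13.1 (0.915), and at 12.3 on array 19 of the males at 19 dpf, against 12.7 to 12.8 (0.83).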

How the results depend on the processing

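Counts and medians depended most on the scaling, and the alpha and beta chain medians of the comparisons with 28 dpf lay above 0 where channels were only centred. With log2 of signal minus background centred per channel, 0 tubulins were lower between 28 and 19 dpf (4 as reported) and 4 were higher and 2 lower between 28 and 15 dpf (2 and 13 as reported). Of 11635 features, 650 were lower between 28 and 19 dpf on that scale, and 2739 were higher and 1555 lower between 28 and 15 dpf. The medians were then 0.01 for alpha and 0.20 for beta chains (28 against 19 dpf) and 0.13 and 0.26 (28 against 15 dpf). With loess alone, 30 were lower between 28 and 19 dpf, 0 were higher and 24 lower between 28 and 15 dpf, and the alpha chain median was 0.12 for 19 against 15 dpf. Of all 11653 features, 4775 were lower between 28 and 19 dpf with loess alone. Between 28 and 15 dpf, 445 of them were higher and 4577 lower. The alpha and beta medians were then -0.74 and -0.61 (28 against 19 dpf) and -0.63 and -0.47 (28 against 15 dpf), and the rule of the methods called 6 ESTs for sex, 5 for genotype and 6 for stage. Calls by the rule were not counted over all features under the alternatives. The median of all features between 28 and 15 dpf was 0.26 when centred, -0.54 with loess alone and -0.11 with features above the limit in all 48 channels, and the share of lower calls among all features was 36.2%, 91.1% and 67.8%, beside 50.9% as reported. Between 28 and 19 dpf that share was 40%, 97% and 80.1%, beside 53.8% as reported, and between 19 and 15 dpf it was 27.9% without background subtraction and 0.917% with loess alone, beside 11.9% as reported. Relative to all features, the alpha chain median between 28 and 15 dpf was -0.35 as reported, -0.13 when centred and -0.09 with loess alone. With features above the limit in all 48 channels it was -0.245.

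Without background subtraction, 2 ESTs were lower between 28 and 19 dpf, and 1 was higher and 8 lower between 28 and 15 dpf. Of all 11653 features, 467 were then lower between 28 and 19 dpf, and 1549 were higher and 1591 lower between 28 and 15 dpf. Without the detection filter, 1 EST was higher between 28 and 19 dpf (1071 of 15853 features) and the rule of the methods called 0 for sex and 0 for stage. Features above the limit in all 48 channels left 0 higher between 28 and 15 dpf, and poor spots kept or each feature's own mixed model left 1. The features called higher there were 169 of 1873, 2180 of 11828 and, with the own mixed model, 1970. With poor spots kept the rule called 1 for genotype, and with no dye term 0 for sex and 0 for stage. At an FDR of 0.2, 1 EST was higher and 1 lower between 19 and 15 dpf, 1 higher and 15 lower between 28 and 19 dpf and 20 lower between 28 and 15 dpf, and with the pairs of combinations read at 0.2 without the first step of the rule 0 were called for sex and 30 for stage. Calls at an FDR of 0.2 were not counted over all features, so these counts cannot be set against a share of the array.

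With 1 array left out at a time, 0 to 1 EST was higher and 1 to 5 lower between 28 and 19 dpf, with 1 lower without array 27. Without that array 676 of 11418 features were lower, beside 1050 of 11653 as reported. Between 28 and 15 dpf 1 to 3 were higher (1 without array 33) and 8 to 14 lower (8 without array 17 or 18). The sex by stage test called 0 to 1, with 1 without array 28, and the rule of the methods 0 to 2 for sex, 0 to 1 for genotype and 0 to 2 for stage. The stage-wise and overall genotype and sex comparisons called 0 tubulins under each alternative run, an FDR of 0.2 included. Genotypes were paired within arrays in every fit, since each array held 1 embryo of each genotype and entered as a random block. Between stages or sexes, which share no array or replicate number, no paired fit could be made. A block for scan date was not run, since none was read from the files, the rule of the methods was not run with each feature's own mixed model, and neither the rule, the interactions nor the comparisons over all stages were run with only the arrays of the stages compared. Signal close to background limits dim ESTs: the lowest stage median of signal over background was 1.56, at 15 dpf.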
